A study of Mus musculus with 8 samples.

Results

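The genes described here encode the extracellular matrix of mouse cells and the enzymes and inhibitors that build, modify and cut it. They were chosen by gene symbol as collagen, laminin, nidogen, fibulin, lysyl oxidase, thrombospondin, tenascin, versican and Sparc genes, collagen-modifying enzymes and their chaperone Serpinh1, the ADAM, ADAMTS and matrix metalloproteinase (Mmp) genes, and the tissue inhibitors of metalloproteinases (Timp). Fbln2 was left out by the same rule, and each gene was represented by its brightest probe. The rule found 65 genes, with 81 probes, among 8576 genes with a named probe on the array, and 61 of them were kept because at least 1 group had signal above background on both of its arrays. Adam10, Adam4, Col17a1 and Col5a3 were not kept and were not tested.

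The 8 arrays, one-colour Illumina bead arrays hybridised with RNA amplified from whole cultures, fell into 4 groups of 2. The miPS-NSC group is labelled as neural stem cells of genotype OG2+/-, with a sample name that reads pips-NSC P8. The pNSC group is labelled as parthenogenetic neural stem cells of genotype OG2+/- with P18 in the sample name, and the fNSC group as female neural stem cells of genotype OG2ROSA with P27 in the sample name. The MEF group is labelled as embryonic fibroblasts of genotype OG2+/-, while the columns of the deposited tables call these arrays OG2ROSA1, so the genotype of the fibroblasts is not settled by the labels. OG2 is a transgene in which Oct4 regulatory sequence drives green fluorescent protein. All groups are labelled female and all list the same expansion medium with epidermal and basic fibroblast growth factors, fibroblasts included. The labelled genotype differs in fNSC and is the same in the other groups, and the number in the sample name differs in each neural stem cell group. Where they differ they cannot be told apart from the group. Second arrays carry the title ending "_re", which the labels do not explain, and no label says whether both arrays of a group share a culture. All p-values therefore rest on differences between arrays that could be purely technical, and the number of arrays limits their precision.

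Fibrillar collagens form the load-bearing fibres of connective tissue, whereas collagen IV, laminins and nidogens assemble the basement membrane sheets that cells sit on. Collagen chains are hydroxylated on proline and lysine and folded with the help of Serpinh1 in the endoplasmic reticulum, and are crosslinked outside the cell by lysyl oxidases. Metalloproteinases of the Mmp, ADAM and ADAMTS families cut matrix and cell-surface proteins, and the Timp proteins bind and inhibit them. Fibroblasts are a main source of fibrillar matrix, while brain tissue holds little fibrillar collagen and neural stem cells contact laminin-rich and tenascin-rich matrix in their niche.

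Probes above background (detection p under 0.01) numbered 10553 to 10902 of 25697 per array. Of 10 neural stem cell markers 7 were kept, and all 7 were detected on both arrays of every neural stem cell group. Sox2, Fabp7, Olig2 and Hes5 were detected on neither MEF array, and the other 3 on both. The summed linear signal of the 7 was 8748 to 9732 in miPS-NSC, 18780 to 19830 in pNSC, 15860 to 20040 in fNSC and 14790 to 16760 in MEF. By this sum, in which the brightest probes weigh most, MEF lay above miPS-NSC. Gene by gene, 5 of the 7 were higher and 1 lower in miPS-NSC than in MEF (limma adjusted p under 0.05 and at least 2-fold). Their median log2 difference was 2.015. Of all genes 24.8% were higher and 17.2% lower there. The 4 markers undetected in MEF passed the detection filter through neural stem cells alone, which favours a higher count. Of 10 fibroblast markers 5 were kept, and all 5 were detected on both MEF arrays. Their summed linear signal was 1551 to 1789 in miPS-NSC, 432.7 to 457.9 in pNSC, 757.5 to 788 in fNSC and 45980 to 46560 in MEF. Thy1 and Twist1 were detected on neither pNSC array, Thy1, Twist2 and S100a4 on neither fNSC array, and Twist2 and S100a4 on neither miPS-NSC array. The one smooth muscle marker kept, of 6 listed, had a linear signal of 91.7 to 116.2 in miPS-NSC, 258.2 to 274.2 in pNSC, 386.6 to 396.5 in fNSC and 61490 to 65100 in MEF. None of 5 endothelial and 5 microglial markers was kept.

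The median range of the 4 group means was 2.70 on the log2 scale over the 61 matrix genes and 1.20 over all 8107 genes kept. MEF had the highest mean for 42 of the 61 genes (68.9%, against 32.2% of all genes), pNSC for 9, fNSC for 6 and miPS-NSC for 4. The lowest mean fell in miPS-NSC for 12 genes, in pNSC for 12, in fNSC for 26 and in MEF for 11, and over all genes for 18.2%, 17.5%, 17.2% and 47.1% in the same order. Signal was detected on both arrays for 45 matrix genes in miPS-NSC, 45 in pNSC, 42 in fNSC and 55 in MEF, which is 73.8%, 73.8%, 68.9% and 90.2% of the matrix genes, against 89.9%, 90.2%, 89.6% and 85.2% of all genes. Adam32, Col1a2, Col5a2, Loxl1, Mmp9 and Vcan were detected on both MEF arrays and on no neural stem cell array, a pattern that 127 genes (1.57%) had overall. Adam22, Adam24, Adamts19, Lamb3, Mmp24 and Timp4 were detected on no MEF array, though Adam24 was detected in fNSC alone and Mmp24 not in fNSC. The share of all genes detected on no MEF array was not counted, so this list is not set against a background. In RNA from whole cultures, fewer cells that express a gene and less of its RNA per cell cannot be told apart.

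**Figure D1:**
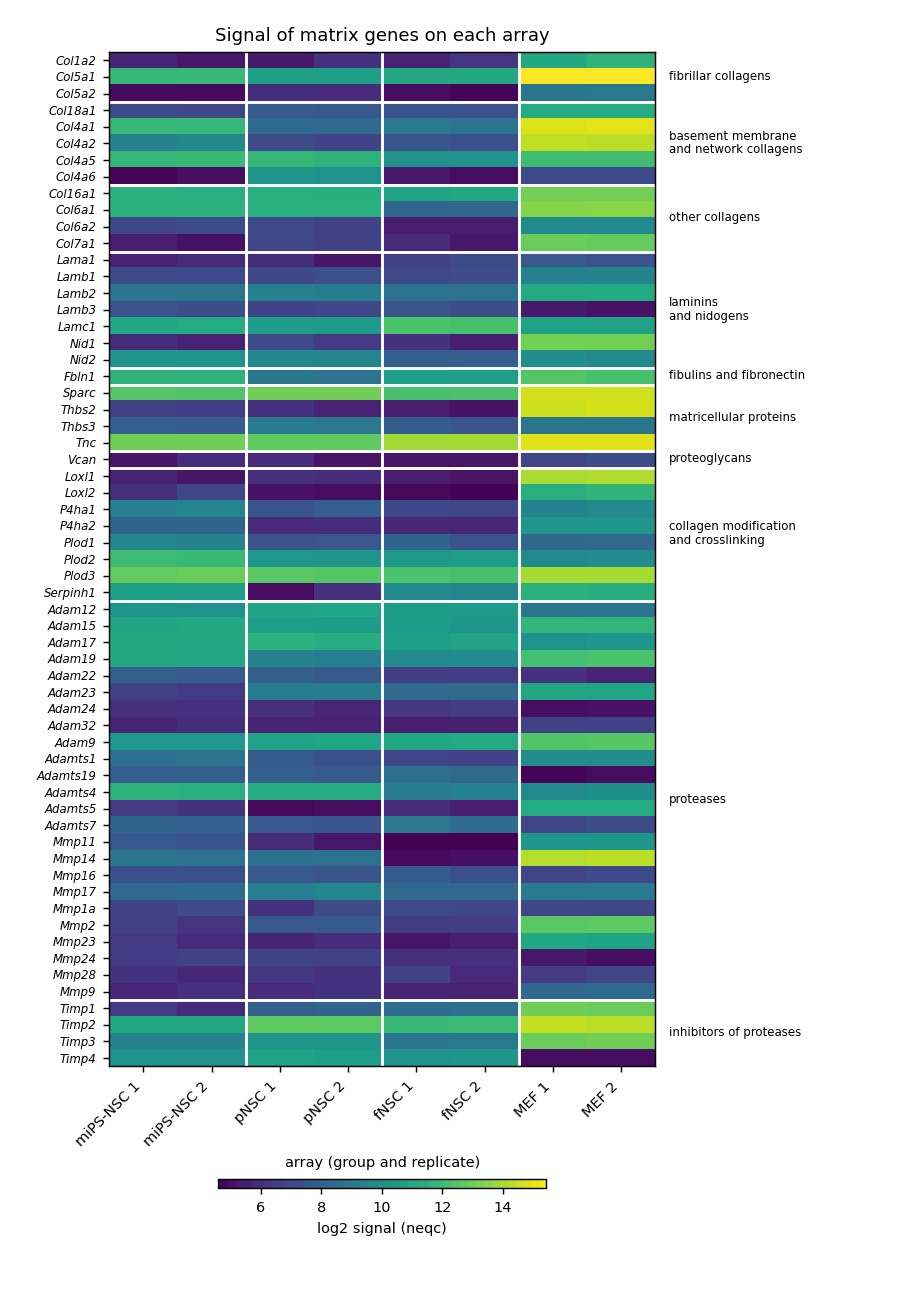
Log2 signal (colour) of the 61 matrix genes (rows, grouped by role) on the 8 arrays (columns). The MEF columns hold the highest group mean for 42 genes, and the paired columns of each group look alike next to the differences between groups.

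Each neural stem cell group was compared with MEF to ask how neural stem cell matrix expression differs from that of fibroblasts. A gene is said to have risen or fallen (to be called) where the limma adjusted p was under 0.05 and the difference at least 2-fold. In miPS-NSC 48 of 61 matrix genes were called against MEF, 37 lower and 11 higher, or 78.7% of the genes. Over all genes 42% were called in that comparison, 17.2% lower and 24.8% higher. In pNSC 49 were called against MEF, 40 lower and 9 higher (80.3%), where 43.4% of all genes were called, 17.6% lower and 25.8% higher. In fNSC 49 were also called against MEF, 42 lower and 7 higher (80.3%), where 43.1% of all genes were called, 17.2% lower and 25.9% higher. The median log2 difference of the matrix genes was -1.72 in miPS-NSC, -1.88 in pNSC and -2.10 in fNSC, each against MEF. With undetected groups set to their bound these medians were -1.28, -1.88 and -2.07. The median of all genes lay at 0.22, 0.21 and 0.25 in these comparisons, and at 0.04, 0.04 and 0.05 with the authors' processed values. With those values the medians of the matrix genes were -1.06, -1.57 and -1.69, so the size of a difference from MEF depends on the scaling. The dimmer group was undetected for 14, 19 and 21 of the called genes in miPS-NSC, pNSC and fNSC. Adam32, Adamts5, Col1a2, Col5a2, Loxl1, Loxl2, Mmp9, Mmp23, Mmp28 and Vcan passed the detection filter through MEF alone, which favours a lower call. Adam22, Adam24, Adamts19, Lamb3, Mmp24 and Timp4 passed it through neural stem cells alone, which favours a higher call. The counts against MEF are therefore partly set by the filter. Genes detected on all 8 arrays are counted separately at the end. The 3 comparisons use the same MEF arrays and are therefore not independent of each other.

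**Figure D2:**
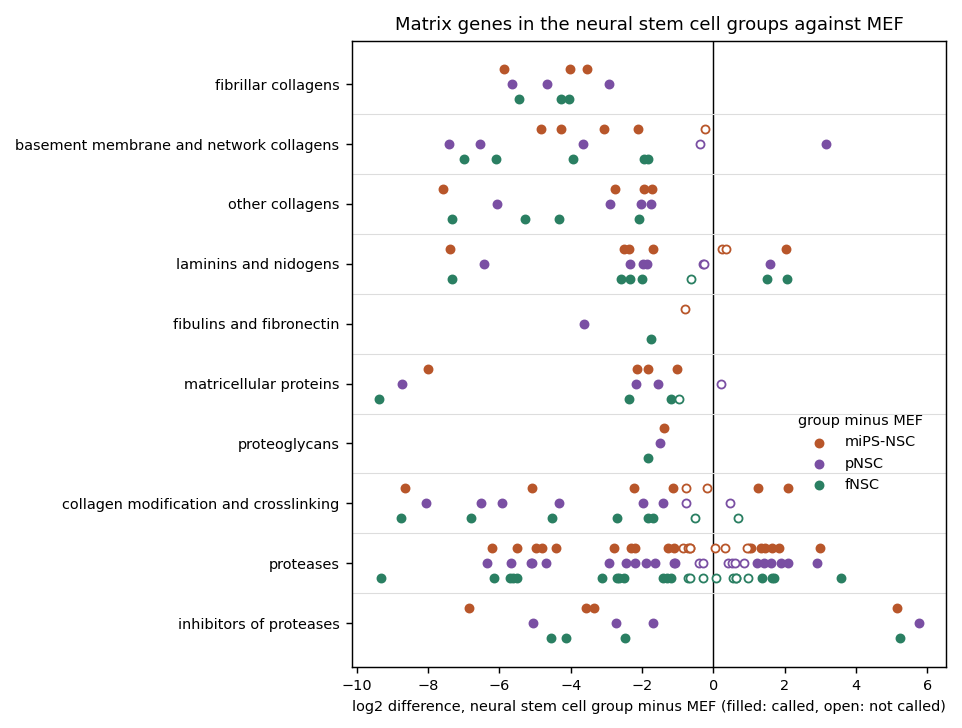
Log2 difference of each matrix gene (points) in miPS-NSC, pNSC and fNSC minus MEF (horizontal axis), by role (vertical axis). Filled points were called. All 3 fibrillar collagens and all 4 other collagens lie below 0 in each group, while the inhibitor Timp4 lies above 5 in each. Col1a2 and Col5a2 passed the detection filter through MEF alone, and Timp4 through neural stem cells alone.

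The 3 groups of neural stem cells were also compared with each other. In miPS-NSC 23 matrix genes were called against pNSC (37.7%), 14 higher and 9 lower, where 14.6% of all genes were called, 7.64% higher and 6.99% lower. Against fNSC, miPS-NSC had 23 called matrix genes as well (37.7%), 19 higher and 4 lower, where 14.1% of all genes were called, 8.5% higher and 5.61% lower. In pNSC 21 matrix genes were called against fNSC (34.4%), 15 higher and 6 lower, where 11.4% of all genes were called, 6.57% higher and 4.87% lower. The median log2 difference of the matrix genes was 0.13, 0.32 and 0.34 in this order, or 0, 0.07 and 0 with undetected groups set to their bound, and the median of all genes was -0.03, -0.04 and -0.01. With the authors' processed values, and equally with quantile normalization without background correction, 12 matrix genes were called in miPS-NSC against pNSC, 9 higher and 3 lower, and 11 in pNSC against fNSC, 7 higher and 4 lower. Of the called genes, the dimmer group was undetected for 7 in miPS-NSC against pNSC, 7 in miPS-NSC against fNSC and 6 in pNSC against fNSC, and both groups were undetected for Col5a2 in miPS-NSC against pNSC and for Col5a2 and Mmp11 in pNSC against fNSC, where no fold is given. Each group stands in several of these comparisons, so their values below are given side by side.

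**Figure D3:**
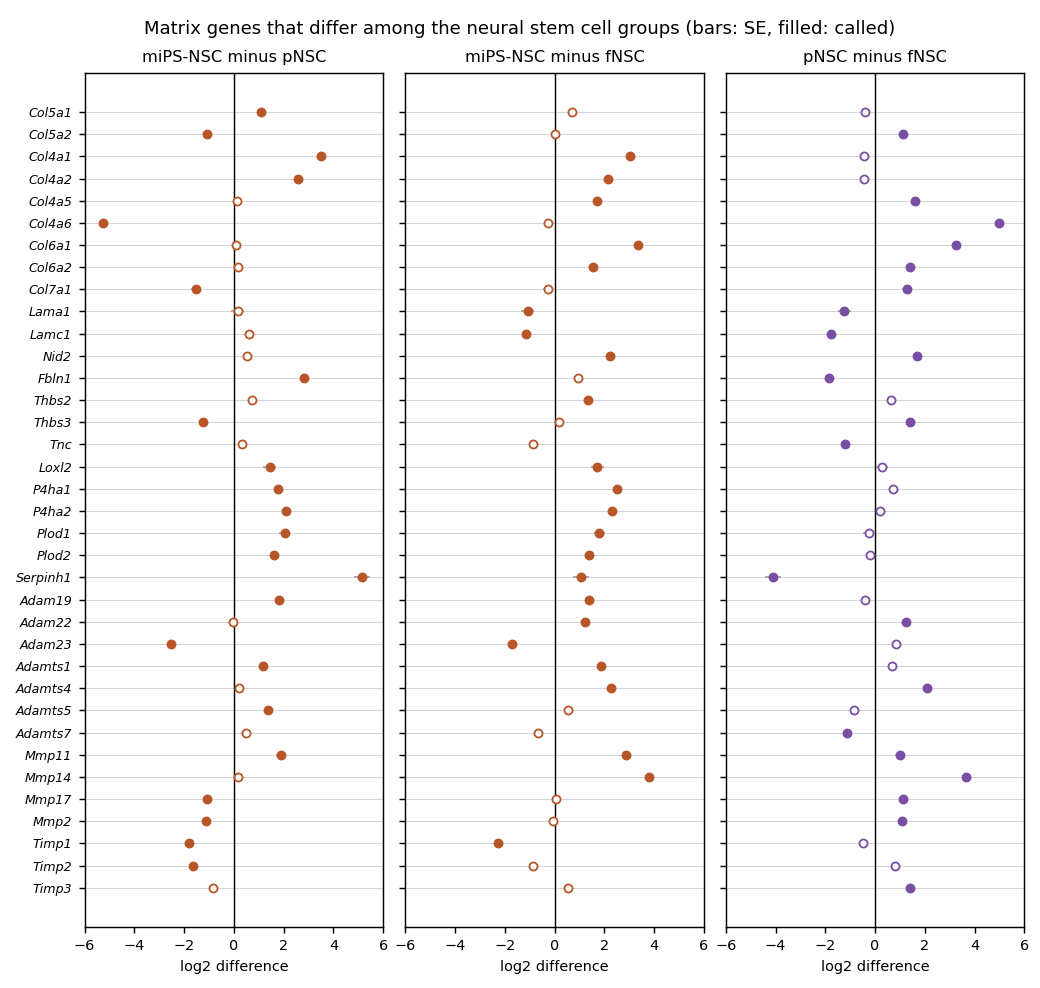
Log2 differences (horizontal axes, bars: standard error) of the 36 matrix genes called in at least 1 comparison between neural stem cell groups (rows), for miPS-NSC minus pNSC, miPS-NSC minus fNSC and pNSC minus fNSC. Filled points were called. Serpinh1 and Col4a6 lie farthest from 0 in miPS-NSC minus pNSC, on opposite sides.

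Promoter sequence was available in RefSeq (GRCm38.p6) for 42 of the 61 genes, as 50 windows of 250 bases before to 50 bases after a start, since 7 genes have several. The 120 bases before the start are shown for genes whose signal was bright in some groups and at background in others, and for Col6a1, which separated fNSC from the rest. Capitals mark matches to any of 6 motifs searched on both strands. They were the letters TATAAA for the core promoter box of that name, CCAAT for the box bound by the factor NF-Y, GGAATG for TEAD factors, TGANTCA for AP-1, CAGACA for SMAD factors and CACGTG for the E-box. Each sequence reads 5′ to 3′ on the gene's strand.
Thbs2 (chr17:14694263-14694382, minus strand): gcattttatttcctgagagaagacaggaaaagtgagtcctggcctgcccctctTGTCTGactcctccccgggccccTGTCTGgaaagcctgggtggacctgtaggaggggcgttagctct
Serpinh1 (chr7:99353240-99353359, minus strand): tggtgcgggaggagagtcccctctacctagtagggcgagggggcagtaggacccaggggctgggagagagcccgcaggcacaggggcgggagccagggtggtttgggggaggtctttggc
Mmp14 (chr14:54431478-54431597, plus strand): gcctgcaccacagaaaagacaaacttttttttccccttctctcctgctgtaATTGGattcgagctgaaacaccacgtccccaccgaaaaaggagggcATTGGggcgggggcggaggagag
Col4a6 (chrX:141474077-141474196, minus strand): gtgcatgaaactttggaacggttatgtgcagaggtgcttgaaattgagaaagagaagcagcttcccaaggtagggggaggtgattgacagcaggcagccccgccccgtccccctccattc
Col6a1 (chr10:76726045-76726164, minus strand): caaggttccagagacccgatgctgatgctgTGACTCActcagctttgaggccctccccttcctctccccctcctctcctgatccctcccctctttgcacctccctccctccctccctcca
The stretch before Thbs2 holds CAGACA in 2 places on the opposite strand, that before Mmp14 holds CCAAT in 2 places on the opposite strand, and that before Col6a1 holds 1 TGANTCA match; the stretches before Serpinh1 and Col4a6 hold none of the letters searched. Over the windows of all matrix genes, CAGACA occurred in 15 of 50 (30%, against 21% of 32851 windows in the genome table), CCAAT in 18 (36%, against 37.4%), TATAAA in 7 (14%, against 13.6%), GGAATG in 7 (14%, against 14.7%), TGANTCA in 3 (6%, against 7.81%) and CACGTG in 3 (6%, against 7.15%). These are counts of letters and describe no binding.

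All 3 fibrillar collagen genes kept fell in every neural stem cell group relative to MEF, where 17.2% to 17.6% of all genes were called lower. Col1a2 and Col5a2 passed the detection filter through MEF alone, which favours a lower call. Col5a1, a chain of the collagen V that nucleates fibrils, had a log2 signal of 11.83 and 11.89 in miPS-NSC, 10.75 and 10.75 in pNSC, 11.15 and 11.12 in fNSC, and 15.39 and 15.43 in MEF. The gene stayed above background on every array, with no overlap between MEF and the others. Its level was 11.7-fold lower in miPS-NSC, 25.3-fold lower in pNSC and 19.3-fold lower in fNSC than in MEF, with limma adjusted p of 3.52e-08, 1.17e-08 and 1.49e-08. Among the neural stem cells Col5a1 rose 2.15-fold in miPS-NSC relative to pNSC (limma adjusted p = 3.31e-05). Col1a2, a chain of the collagen I of skin and bone, averaged 5.52 ± 0.25 in miPS-NSC, 5.76 ± 0.56 in pNSC, 5.94 ± 0.41 in fNSC and 11.40 ± 0.37 in MEF (SD, n = 2 each), and was detected in MEF alone. Where the dimmer group had no array above background, a fold was bounded by the lowest signal detected on those arrays, and Col1a2 was at least 36.9-fold lower in miPS-NSC, at least 36.4-fold lower in pNSC and at least 36.5-fold lower in fNSC than in MEF. Col5a2 was likewise detected in MEF alone, at least 6.61-fold above miPS-NSC, at least 6.52-fold above pNSC and at least 6.54-fold above fNSC.

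Basement membrane collagens differed both from MEF and among the neural stem cells. Col4a1, which pairs with Col4a2 in the collagen IV found in nearly all basement membranes, had a log2 signal of 11.87 and 11.83 in miPS-NSC, 8.40 and 8.33 in pNSC, 8.93 and 8.72 in fNSC, and 14.86 and 14.96 in MEF. The miPS-NSC arrays thus lay between the other neural stem cells and MEF without overlap. The difference was 11.2-fold over pNSC and 8.13-fold over fNSC (limma adjusted p = 6.9e-07 and 1.21e-06), while miPS-NSC remained 8.35-fold below MEF. Col4a2 gave 9.37 and 9.66 in miPS-NSC, 7.08 and 6.76 in pNSC, 7.50 and 7.23 in fNSC, and 14.39 and 14.30 in MEF. It was 6.02-fold higher in miPS-NSC than in pNSC and 4.45-fold higher than in fNSC, and 171-fold lower in pNSC than in MEF (limma adjusted p = 1.95e-05, 4.35e-05 and 3.01e-08). In pNSC against fNSC neither gene was called, with log2 differences of -0.47 for Col4a1 and -0.44 for Col4a2. The transcription starts of Col4a1 and Col4a2 lie 21 bases apart on opposite strands of chromosome 8 in the RefSeq annotation of GRCm38.p6.

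The X-linked pair Col4a5 and Col4a6, whose chains form another collagen IV network, did not move together. Col4a6 had a log2 signal of 4.78 and 4.99 in miPS-NSC, 10.23 and 10.06 in pNSC, 5.35 and 4.96 in fNSC, and 7.01 and 6.97 in MEF. It was detected on both pNSC and both MEF arrays and on no miPS-NSC or fNSC array. The pNSC level was at least 15.3-fold above fNSC and 8.93-fold above MEF, and the miPS-NSC level at least 15.4-fold below pNSC (limma adjusted p = 1.09e-06, 1.19e-06 and 6.9e-07). A further Col4a6 probe gave log2 differences of 3.80 for pNSC against fNSC and -3.79 for miPS-NSC against pNSC. Col4a5 had 11.79 and 11.88 in miPS-NSC, 11.80 and 11.61 in pNSC, 10.11 and 10.12 in fNSC, and 12.06 and 12.09 in MEF. It was lower in fNSC than in every other group, by 3.88-fold against MEF, and rose 3.29-fold in miPS-NSC and 3-fold in pNSC relative to fNSC (limma adjusted p = 1.25e-06, 1.06e-05 and 2.06e-05). The log2 difference of Col4a5 for miPS-NSC against pNSC was 0.13, which was not called. Starts of the 2 genes lie 1343 bases apart on opposite strands of chromosome X. Col18a1, the source of the angiogenesis inhibitor endostatin, was detected in all groups and was 19.4-fold lower in miPS-NSC, 12.5-fold lower in pNSC and 15.5-fold lower in fNSC than in MEF.

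Of the remaining collagens, Col6a1 and Col6a2, chains of the beaded-filament collagen VI, set fNSC apart. Col6a1 had a log2 signal of 11.50 and 11.56 in miPS-NSC, 11.41 and 11.46 in pNSC, 8.13 and 8.25 in fNSC, and 13.46 and 13.48 in MEF. The fNSC arrays were the lowest and the MEF arrays the highest, with none overlapping. Col6a1 was 10.2-fold higher in miPS-NSC and 9.51-fold higher in pNSC than in fNSC (limma adjusted p = 4.21e-07 and 4.99e-07), and a further probe gave log2 differences of 3.19 and 2.90. Relative to MEF it was 3.83-fold lower in miPS-NSC, 4.09-fold lower in pNSC and 38.9-fold lower in fNSC. Col6a2 was detected on both arrays of miPS-NSC, pNSC and MEF and on no fNSC array, where its level was at least 1.72-fold below miPS-NSC and at least 1.55-fold below pNSC.

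Col7a1, the collagen of the anchoring fibrils under epithelia, had a log2 signal of 5.50 and 5.14 in miPS-NSC, 6.90 and 6.81 in pNSC, 5.87 and 5.30 in fNSC, and 12.96 and 12.88 in MEF. Among the neural stem cells it was detected in pNSC alone. It was at least 105-fold lower in miPS-NSC, 66.8-fold lower in pNSC and at least 104-fold lower in fNSC than in MEF (limma adjusted p = 8.15e-08, 2.19e-07 and 8.8e-08). Its fall of at least 1.58-fold in miPS-NSC relative to pNSC was not called with the authors' processed values (log2 difference -0.52). Col16a1, a fibril-associated collagen, had 11.45 and 11.40 in miPS-NSC, 11.43 and 11.34 in pNSC, 10.91 and 11.20 in fNSC, and 13.15 and 13.14 in MEF. It fell in each neural stem cell group relative to MEF, by 1.72, 1.76 and 2.10 on the log2 scale in miPS-NSC, pNSC and fNSC, and was not called among them.

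Most collagen-modifying genes kept were higher in miPS-NSC than in both other neural stem cell groups. Of 8 genes, 6 rose in miPS-NSC relative to pNSC and 6 relative to fNSC, and none fell. In pNSC against fNSC 1 fell and none rose. Of all genes 7.64%, 8.5% and 6.57% were called higher and 6.99%, 5.61% and 4.87% lower, in the same order. Loxl2, counted in both sets of 6, was detected on 1 miPS-NSC array and passed the detection filter through MEF alone. Its rise was at least 1.2-fold in each. Serpinh1, the collagen-specific chaperone Hsp47, had a log2 signal of 10.71 and 10.67 in miPS-NSC, 4.96 and 6.12 in pNSC, 9.70 and 9.55 in fNSC, and 11.55 and 11.36 in MEF. It was detected on every array except those of pNSC. The pNSC level was at least 10.7-fold below fNSC and at least 37.9-fold below MEF, and the miPS-NSC level at least 22.2-fold above pNSC (limma adjusted p = 8.8e-05, 2.72e-06 and 2.5e-05). In miPS-NSC Serpinh1 was 2.08-fold above fNSC (limma adjusted p = 0.0305). That call was lost on leaving out any 1 of the miPS-NSC, fNSC or MEF arrays, where the log2 difference was 0.98 to 1.13. With the authors' processed values the log2 difference was 0.93, short of 2-fold. The undetected pNSC arrays, with an SD of 0.82, enter the shared estimate of spread. With only the 2 groups compared the call was kept (limma adjusted p = 0.00207). Against MEF the miPS-NSC log2 difference of -0.77 was not called. Serpinh1 has 1 probe on the array, so no other probe can be set beside these values.

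The prolyl 4-hydroxylase subunits P4ha1 and P4ha2, which make the collagen helix stable, and the lysyl hydroxylases Plod1 and Plod2, which prepare collagen for crosslinking, were higher in miPS-NSC than in both other neural stem cell groups. P4ha1 had a log2 signal of 9.31 and 9.56 in miPS-NSC, 7.46 and 7.83 in pNSC, 6.95 and 6.87 in fNSC, and 9.43 and 9.79 in MEF. The miPS-NSC and MEF arrays overlapped, and both lay above the other groups. It rose 3.45-fold in miPS-NSC relative to pNSC and 5.74-fold relative to fNSC (limma adjusted p = 0.000161 and 3.18e-05). P4ha2 had 8.08 and 8.10 in miPS-NSC, 5.94 and 6.03 in pNSC, 5.83 and 5.74 in fNSC, and 10.28 and 10.33 in MEF, and was detected on no pNSC or fNSC array. It was at least 3.67-fold higher in miPS-NSC than in pNSC and at least 3.68-fold higher than in fNSC, and 4.64-fold lower in miPS-NSC than in MEF (limma adjusted p = 2.57e-06, 1.77e-06 and 4.01e-07). The call against pNSC was lost with the authors' processed values, where the log2 difference was 0.98, and the call against fNSC was not recomputed with them.

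Plod2 was the brightest in miPS-NSC, with a log2 signal of 12.02 and 11.87, against 10.39 and 10.26 in pNSC, 10.42 and 10.66 in fNSC, and 9.79 and 9.90 in MEF. It rose 3.08-fold relative to pNSC, 2.64-fold relative to fNSC and 4.28-fold relative to MEF (limma adjusted p = 3.79e-05, 7.8e-05 and 2.55e-06). Plod1 averaged 9.51 ± 0.11 in miPS-NSC, 7.47 ± 0.091 in pNSC, 7.72 ± 0.52 in fNSC and 8.25 ± 0.043 in MEF (SD, n = 2 each), and was 4.11-fold higher in miPS-NSC than in pNSC. Plod3, also a lysyl hydroxylase, followed a different order, with 12.81 and 12.94 in miPS-NSC, 12.64 and 12.55 in pNSC, 12.37 and 12.26 in fNSC, and 14.03 and 14.01 in MEF. It was called against MEF alone, 2.2-fold lower in miPS-NSC, 2.68-fold lower in pNSC and 3.26-fold lower in fNSC.

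The lysyl oxidases, which crosslink collagen and elastin, were near or below background in all neural stem cells. Loxl1 had a log2 signal of 5.62 and 5.26 in miPS-NSC, 6.07 and 5.999 in pNSC, 5.48 and 5.16 in fNSC, and 14.04 and 14.13 in MEF. It was detected on the MEF arrays alone and was at least 237-fold lower in miPS-NSC, at least 234-fold lower in pNSC and at least 235-fold lower in fNSC (limma adjusted p = 1.62e-08, 1.93e-08 and 1.45e-08). Loxl2 had 6.04 and 6.91 in miPS-NSC, 5.11 and 4.96 in pNSC, 4.88 and 4.64 in fNSC, and 11.45 and 11.66 in MEF. Apart from MEF it was detected on 1 miPS-NSC array, so a fold from the miPS-NSC mean is approximate. It was 33.9-fold lower in miPS-NSC, at least 40.5-fold lower in pNSC and at least 40.6-fold lower in fNSC than in MEF (limma adjusted p = 2.03e-06, 6.06e-07 and 4.73e-07), and at least 1.2-fold higher in miPS-NSC than in each other neural stem cell group.

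**Figure D4:**
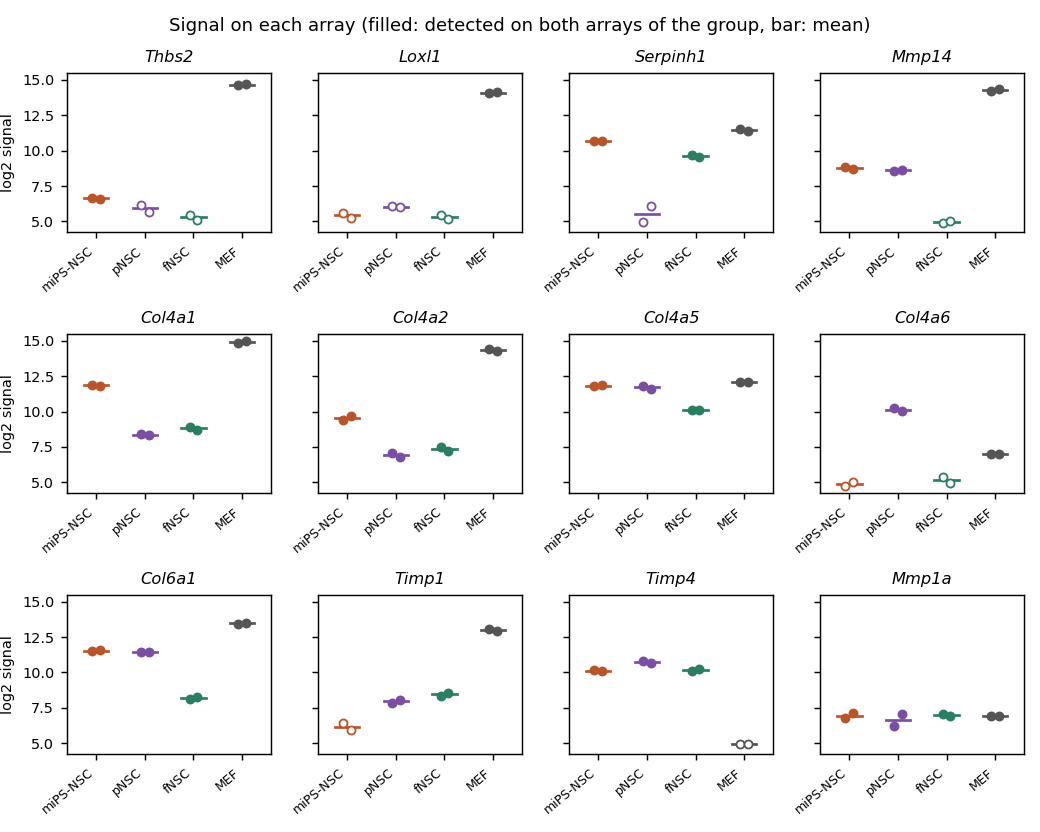
Log2 signal (vertical axes) on each array of miPS-NSC, pNSC, fNSC and MEF (horizontal axes) for 12 matrix genes. Bars are group means, and filled points mark groups with both arrays above background. Serpinh1 is open in pNSC alone, Mmp14 in fNSC alone and Timp4 in MEF alone, while the Mmp1a groups overlap.

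Laminins and nidogens moved in both directions. Nid1, which links laminin to collagen IV, had a log2 signal of 5.91 and 5.57 in miPS-NSC, 6.97 and 6.42 in pNSC, 6.13 and 5.51 in fNSC, and 13.15 and 13.12 in MEF. It was above background in pNSC and MEF, and was at least 123-fold lower in miPS-NSC, 86.8-fold lower in pNSC and at least 122-fold lower in fNSC than in MEF (limma adjusted p = 2.75e-07, 5.12e-07 and 2.6e-07). Its relative Nid2 had 10.13 and 10.11 in miPS-NSC, 9.65 and 9.52 in pNSC, 7.95 and 7.83 in fNSC, and 9.99 and 9.78 in MEF. Nid2 was lowest in fNSC, by 4.69-fold against miPS-NSC, 3.23-fold against pNSC and 3.98-fold against MEF (limma adjusted p = 4.84e-06, 2.43e-05 and 1.89e-06).

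Lamc1, the gamma chain shared by most laminins, ran the other way and was brightest in fNSC. Its log2 signal was 11.09 and 11.27 in miPS-NSC, 10.59 and 10.55 in pNSC, 12.35 and 12.29 in fNSC, and 10.82 and 10.83 in MEF. It was 2.2-fold lower in miPS-NSC and 3.37-fold lower in pNSC than in fNSC, and 2.82-fold higher in fNSC than in MEF (limma adjusted p = 6.35e-05, 1.08e-05 and 3.86e-06). Lama1, an alpha chain of embryonic basement membranes, had 5.68 and 5.88 in miPS-NSC, 6.003 and 5.24 in pNSC, 6.64 and 7.07 in fNSC, and 7.62 and 7.33 in MEF. It was detected in fNSC and MEF and not in the other groups, at least 1.58-fold lower in miPS-NSC and at least 1.56-fold lower in pNSC than in fNSC. The authors' processed values gave log2 differences of -0.39 and -0.44 for these comparisons, and neither was called; leaving out miPS-NSC array 1, fNSC array 2 or, for pNSC, pNSC array 2 also ended a call. Lamb1 and Lamb2, beta chains, fell in every neural stem cell group relative to MEF by 1.97 to 2.58 on the log2 scale and were not called among them. Lamb3, a beta chain of epithelial laminin, had 7.37 and 7.19 in miPS-NSC, 6.76 and 6.91 in pNSC, 7.43 and 7.17 in fNSC, and 5.38 and 5.12 in MEF, where it was not detected. The bound was at least 2.05-fold higher in miPS-NSC, at least 1.51-fold in pNSC and at least 2.08-fold in fNSC than in MEF. The calls in miPS-NSC and fNSC were lost with the authors' processed values (log2 0.61 in both), and the call in pNSC was not recomputed with them.

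Fbln1, a glycoprotein of basement membranes and elastic fibres, had a log2 signal of 11.63 and 11.62 in miPS-NSC, 8.85 and 8.73 in pNSC, 10.71 and 10.61 in fNSC, and 12.54 and 12.28 in MEF. The groups did not overlap, and pNSC was the lowest. Fbln1 was 7.13-fold higher in miPS-NSC than in pNSC, 3.66-fold lower in pNSC than in fNSC and 12.3-fold lower in pNSC than in MEF (limma adjusted p = 2.39e-06, 1.94e-05 and 1.55e-07). Its other probes gave log2 differences of 1.11 and 2.28 for miPS-NSC against pNSC, and they disagreed in sign for miPS-NSC against MEF (-0.90 and 0.64).

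Thbs2, a matricellular thrombospondin that restrains angiogenesis, was far below MEF in every neural stem cell group. Its log2 signal was 6.68 and 6.61 in miPS-NSC, 6.15 and 5.69 in pNSC, 5.43 and 5.14 in fNSC, and 14.61 and 14.71 in MEF. The gene was above background on both miPS-NSC and both MEF arrays and on no other. It was 258-fold lower in miPS-NSC, at least 348-fold lower in pNSC and at least 349-fold lower in fNSC than in MEF (limma adjusted p = 3.32e-08, 2e-08 and 1.53e-08). Its rise of at least 1.35-fold in miPS-NSC over fNSC was called with limma (adjusted p = 0.000556) but not with the authors' processed values, where the log2 difference was 0.44. Tnc, the tenascin of the neural stem cell niche, had 13.07 and 13.07 in miPS-NSC, 12.72 and 12.77 in pNSC, 13.94 and 13.95 in fNSC, and 14.88 and 14.95 in MEF. It was 2.3-fold lower in pNSC than in fNSC, 4.51-fold lower in pNSC than in MEF and 3.6-fold lower in miPS-NSC than in MEF (limma adjusted p = 2.94e-05, 3.13e-07 and 6.62e-07). The log2 difference of -0.97 in fNSC against MEF was short of 2-fold, and the other Tnc probes gave -1.22, -1.25, -0.43 and -0.15 there. Sparc, a collagen-binding glycoprotein, fell by 2.15 in miPS-NSC, 1.56 in pNSC and 2.35 in fNSC on the log2 scale relative to MEF. Thbs3, a relative of Thbs2, was 2.62-fold higher in pNSC than in fNSC and 2.34-fold lower in miPS-NSC than in pNSC, and its other probes gave the same sign in both. Vcan, a large chondroitin sulfate proteoglycan, had 5.24 and 5.99 in miPS-NSC, 5.88 and 5.15 in pNSC, 5.22 and 5.15 in fNSC, and 6.87 and 7.16 in MEF. It was detected in MEF alone, at least 1.77-fold above miPS-NSC, at least 1.74-fold above pNSC and at least 1.75-fold above fNSC.

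Among 24 proteases kept, 10 fell and 7 rose in miPS-NSC relative to MEF, 12 fell and 6 rose in pNSC, and 12 fell and 4 rose in fNSC. Of all genes 24.8%, 25.8% and 25.9% were higher and 17.2%, 17.6% and 17.2% lower in the same comparisons. Mmp14, a membrane-anchored collagenase that activates Mmp2, had a log2 signal of 8.86 and 8.69 in miPS-NSC, 8.57 and 8.65 in pNSC, 4.88 and 5.04 in fNSC, and 14.23 and 14.33 in MEF. The miPS-NSC and pNSC arrays lay close together at a middle level, with a log2 difference of 0.17 that was not called, and no fNSC array was above background. Mmp14 was at least 5.91-fold higher in miPS-NSC and at least 5.27-fold higher in pNSC than in fNSC, and at least 269-fold lower in fNSC than in MEF (limma adjusted p = 5.59e-07, 8.81e-07 and 5.78e-09). Relative to MEF it was 45.5-fold lower in miPS-NSC and 51-fold lower in pNSC. The gelatinase Mmp2 was detected on every array and was 74.5-fold lower in miPS-NSC, 33.9-fold lower in pNSC and 71.2-fold lower in fNSC than in MEF, with pNSC 2.1-fold above fNSC. Mmp11, stromelysin-3, had 7.55 and 7.47 in miPS-NSC, 5.95 and 5.30 in pNSC, 4.65 and 4.59 in fNSC, and 10.28 and 10.34 in MEF. It was detected in miPS-NSC and MEF, and was at least 2.46-fold higher in miPS-NSC than in pNSC and than in fNSC (limma adjusted p = 0.000211 and 2.82e-05).

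The ADAMTS aggrecanases behaved differently from one another. Adamts4 had a log2 signal of 11.62 and 11.39 in miPS-NSC, 11.31 and 11.29 in pNSC, 9.09 and 9.35 in fNSC, and 9.74 and 10.00 in MEF. It was 4.86-fold higher in miPS-NSC and 4.23-fold higher in pNSC than in fNSC (limma adjusted p = 1.78e-05 and 3.64e-05), and also 3.1-fold and 2.7-fold above MEF in miPS-NSC and pNSC. Adamts5 was detected on both MEF arrays and on 1 miPS-NSC array, so its miPS-NSC fold is approximate. It was about 31.2-fold lower in miPS-NSC, at least 32.6-fold lower in pNSC and at least 32.8-fold lower in fNSC than in MEF. Adamts1 averaged 8.67 ± 0.085 in miPS-NSC, 7.49 ± 0.35 in pNSC, 6.80 ± 0.053 in fNSC and 9.93 ± 0.011 in MEF (SD, n = 2 each), and rose in miPS-NSC 2.26-fold relative to pNSC and 3.65-fold relative to fNSC. Adamts19, a family member with little known about its substrates, had 7.85 and 7.86 in miPS-NSC, 7.87 and 7.67 in pNSC, 8.56 and 8.34 in fNSC, and 4.80 and 4.95 in MEF. It was detected in every neural stem cell group and not in MEF, at least 3.05-fold higher in miPS-NSC, at least 2.88-fold higher in pNSC and at least 4.61-fold higher in fNSC (limma adjusted p = 4.85e-07, 5.62e-07 and 2.01e-07). Adamts7, which cuts a cartilage matrix protein, had 8.08 and 7.90 in miPS-NSC, 7.57 and 7.47 in pNSC, 8.89 and 8.38 in fNSC, and 6.89 and 7.08 in MEF. It was 3.13-fold higher in fNSC than in MEF (limma adjusted p = 7.87e-05), a call that was lost with the authors' processed values (log2 0.86).

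The ADAM genes include active sheddases and members without protease activity. Adam9, an active sheddase, had a log2 signal of 10.37 and 10.36 in miPS-NSC, 10.84 and 10.95 in pNSC, 11.06 and 11.21 in fNSC, and 12.47 and 12.63 in MEF, and fell 4.55-fold, 3.14-fold and 2.66-fold relative to MEF in miPS-NSC, pNSC and fNSC. Adam12, a disintegrin protease of muscle and mesenchyme, ran against that direction with 10.23 and 10.11 in miPS-NSC, 10.91 and 10.95 in pNSC, 10.50 and 10.59 in fNSC, and 8.83 and 8.87 in MEF. It was 2.5-fold higher in miPS-NSC, 4.24-fold higher in pNSC and 3.25-fold higher in fNSC than in MEF (limma adjusted p = 5.92e-06, 6.18e-07 and 1.59e-06). Adam22 and Adam23 lack protease activity and serve as neuronal receptors of the secreted Lgi proteins. Adam22 had 7.86 and 7.65 in miPS-NSC, 7.91 and 7.67 in pNSC, 6.60 and 6.48 in fNSC, and 6.14 and 5.67 in MEF, where it was not detected. It was at least 2.85-fold higher in miPS-NSC and at least 2.93-fold higher in pNSC than in MEF, calls that were lost with the authors' processed values (log2 0.65 and 0.68), and 2.32-fold and 2.39-fold higher than in fNSC. Adam23 had 6.74 and 6.49 in miPS-NSC, 9.16 and 9.12 in pNSC, 8.31 and 8.33 in fNSC, and 11.09 and 10.95 in MEF. Its miPS-NSC level was 5.76-fold below pNSC and 3.26-fold below fNSC (limma adjusted p = 3.83e-06 and 2.14e-05). The call against fNSC was lost with the authors' processed values (log2 -0.90), and the other Adam23 probe gave -1.03 for miPS-NSC against pNSC and -0.15 for miPS-NSC against fNSC. Adam19, a metalloproteinase of the same family, was 3.48-fold higher in miPS-NSC than in pNSC and 2.6-fold higher than in fNSC. Adam17, the sheddase of tumour necrosis factor, was 2.32-fold higher in pNSC than in MEF and was called nowhere else. Adam15 fell 2.16-fold in pNSC and 2.49-fold in fNSC relative to MEF. Adam32, detected in MEF alone, was at least 1.41-fold lower in pNSC and at least 1.42-fold lower in fNSC. Adam24, a gene of the testis in mice, was detected in fNSC alone, at least 1.13-fold above MEF, while its call in miPS-NSC against MEF had both groups at background.

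Of the other Mmp genes, Mmp9, a gelatinase, was detected in MEF alone and was at least 4.23-fold lower in miPS-NSC, at least 4.17-fold lower in pNSC and at least 4.19-fold lower in fNSC. Mmp23 was detected on both MEF arrays and on 1 miPS-NSC array, and was at least 26.9-fold lower in pNSC and at least 27-fold lower in fNSC than in MEF. In miPS-NSC it fell by 4.81 on the log2 scale, with a mean at the edge of detection that allows no exact fold. Mmp17, a membrane-anchored family member, was highest in pNSC, where it was 2.16-fold above fNSC, and miPS-NSC was 2.09-fold below pNSC. Mmp24, also membrane-anchored, was at least 1.27-fold higher in miPS-NSC and at least 1.43-fold higher in pNSC than in MEF. Mmp16 and Mmp28 were called in no comparison. The matrix gene with the smallest range of group means was Mmp1a, a mouse interstitial collagenase. Its log2 signal was 6.76 and 7.16 in miPS-NSC, 6.19 and 7.06 in pNSC, 7.03 and 6.94 in fNSC, and 6.91 and 6.94 in MEF. The groups overlapped, all lay near the lowest detected signal of the arrays (6.13 to 6.29), and no comparison was called.

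The 4 Timp genes split. Timp4 had a log2 signal of 10.14 and 10.07 in miPS-NSC, 10.82 and 10.66 in pNSC, 10.11 and 10.27 in fNSC, and 4.96 and 4.97 in MEF. It was detected in every neural stem cell group and on no MEF array, and was at least 14.5-fold higher in miPS-NSC, at least 22.6-fold higher in pNSC and at least 15.4-fold higher in fNSC than in MEF (limma adjusted p = 2.16e-08, 1.25e-08 and 1.7e-08). Timp1 had 6.42 and 5.91 in miPS-NSC, 7.87 and 8.05 in pNSC, 8.36 and 8.53 in fNSC, and 13.06 and 12.96 in MEF. MEF was the highest and miPS-NSC, with 1 array above background, the lowest. Timp1 in miPS-NSC fell by 6.84 relative to MEF, 2.28 relative to fNSC and 1.80 relative to pNSC on the log2 scale, with a mean at the edge of detection that allows no exact fold (limma adjusted p = 6.96e-08, 5.33e-05 and 0.000159). A further probe gave -2.61 on the log2 scale against fNSC and -2.01 against pNSC, while with the authors' processed values the difference from pNSC was -0.83 and was not called. Timp2, which also helps Mmp14 to activate Mmp2, had 11.07 and 11.06 in miPS-NSC, 12.74 and 12.70 in pNSC, 11.92 and 11.96 in fNSC, and 14.45 and 14.37 in MEF. It fell 3.15-fold in miPS-NSC relative to pNSC and 10.1-fold relative to MEF (limma adjusted p = 6.04e-06 and 4.84e-08). Timp3, the matrix-bound inhibitor, was 11.8-fold lower in miPS-NSC, 6.59-fold lower in pNSC and 17.4-fold lower in fNSC than in MEF. Its 2.64-fold rise in pNSC over fNSC compares with a log2 difference of 0.36 at a further Timp3 probe.

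Further genes of the matrix pathway were taken from lists drawn up for this work. Their counts stand beside 17.2% to 17.6% of all genes lower and 24.8% to 25.9% higher in the comparisons with MEF, and beside 4.87% to 6.99% lower and 6.57% to 8.5% higher among the neural stem cells. Of 15 collagen processing and secretion genes kept, 5 rose and 1 fell in miPS-NSC relative to pNSC, 4 rose and 1 fell relative to fNSC, and 1 rose and 2 fell in pNSC relative to fNSC. The risers against pNSC were the prolyl 3-hydroxylase family genes P3h1, P3h2, P3h3 and P3h4 and the collagen galactosyltransferase Colgalt2, with log2 differences of 1.81, 2.42, 1.20, 3.44 and 1.62. P3h1 and P3h4 were above background on 1 of the 2 pNSC arrays and fell in pNSC relative to fNSC by 1.49 and 1.73 on the log2 scale. Relative to MEF, 11 of the 15 fell and 2 rose in miPS-NSC, and 10 fell and 1 rose in pNSC and likewise in fNSC.

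Of 7 elastic fibre and latent TGF-beta binding genes, 4 rose and 1 fell in pNSC relative to fNSC. Emilin2, Ltbp1 and the microfibril gene Mfap2 were detected on no fNSC array. Mfap2 had a log2 difference of 4.995 there, which is measured against background and allows no exact fold. Of 6 brain matrix genes, 5 rose in each neural stem cell group relative to MEF, 1 fell in miPS-NSC and none fell in the other groups. Ncan, Bcan, Hapln4, Reln and Cspg5 were detected on no MEF array. They passed the detection filter through neural stem cells alone, which favours a higher call. Reln was also detected on no miPS-NSC array, so its call there had both groups at background. Ncan, which encodes a proteoglycan of brain matrix, had log2 differences of 8.58 in miPS-NSC, 7.54 in pNSC and 7.10 in fNSC. With MEF at background these allow no exact fold. Among 17 matrix receptor genes, 6 fell and 2 rose in miPS-NSC relative to MEF, 7 fell and 3 rose in pNSC, and 8 fell and 3 rose in fNSC. The laminin receptor subunit Itga7 rose by 2.78 in miPS-NSC and 3.25 in pNSC on the log2 scale relative to fNSC. Of 7 protease inhibitors and activators outside the Timp family, 5 fell and 1 rose in miPS-NSC relative to MEF, and 6 fell and none rose in pNSC and likewise in fNSC. Of 4 leucine-rich and basement membrane proteoglycans, 2 rose and 1 fell in miPS-NSC relative to pNSC, and all 3 TGF-beta and YAP target genes kept fell in every neural stem cell group relative to MEF.

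Markers of cell types moved with some of these differences. Of 5 fibroblast markers, 2 rose and 1 fell in miPS-NSC relative to pNSC. Relative to fNSC 1 rose and none fell, with a median log2 difference of 0.017 over the 5. In pNSC relative to fNSC 1 rose and 1 fell. In miPS-NSC, Thy1 rose by 4.96 and Twist1 by 4.26 on the log2 scale relative to pNSC, while Twist2 fell by 2.25, and Thy1 rose by 4.79 relative to fNSC. In pNSC relative to fNSC, Twist2 rose by 2.27 and Twist1 fell by 3.83. The dimmer group was undetected in each of these differences of Thy1, Twist1 and Twist2, so they allow no exact fold. Of 7 neural stem cell markers, 5 fell in miPS-NSC relative to fNSC, Fabp7 by 2.83 and Hes5 by 2.72 on the log2 scale, and 4 fell relative to pNSC, while 1 fell in pNSC relative to fNSC and none rose in these comparisons. Of 7 astrocyte markers, 4 rose in miPS-NSC and 3 rose in pNSC relative to fNSC, none fell, and in miPS-NSC relative to pNSC 2 rose and 1 fell. In pNSC relative to fNSC, Clu rose by 3.02 and Gja1 by 4.16 on the log2 scale, and Apoe, not detected in fNSC, rose at least 35.9-fold. Of 5 neuron markers, 2 rose and 1 fell in miPS-NSC relative to pNSC, and 2 rose relative to fNSC. In pNSC relative to fNSC 1 neuron marker rose and 1 fell. Of 3 oligodendrocyte lineage markers, 2 fell in miPS-NSC relative to pNSC and 1 relative to fNSC, and 1 rose in pNSC relative to fNSC. Among all genes, 4.87% to 6.99% were called lower and 6.57% to 8.5% higher in these comparisons. The part of any of these markers in the matrix gene differences was not tested. Of the matrix genes kept, Col16a1, Mmp16, Mmp23, Plod1 and Tnc lie on chromosome 4 and none on chromosome 19; without the genes of these chromosomes 20 of 56 matrix genes were called in pNSC against fNSC, 15 higher and 5 lower.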

How the data were processed

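RNA from cultures of 4 kinds was profiled on 8 Illumina bead arrays, 2 per group. The deposited probe intensity table, with a detection p-value and bead numbers (a count of beads per probe, kept as a score of quality) for each array, holds bead averages per the file headers and, as its values show, was deposited without normalization between arrays. GenomeStudio 2009.2 is named in the submitters' processing notes. The authors' processed table deposited with the series holds log2 values of 12421 probes. These have detection p under 0.05 on 4 arrays or more, and equal quantiles on all arrays show that the values were quantile normalized; the tool was not given in the sources used here. That table was used for probe names and as an alternative. Of its probes 11692 have 1 gene symbol, none have several and 729 have none, and 11686 matched a RefSeq gene.

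Intensities of 25697 probes were background-corrected from detection p-values, given an offset of 16, quantile normalized and put on the log2 scale (neqc, limma 3.58.1, R 4.3.3). A gene was kept if a group had both arrays at a detection p below 0.01, the brightest probe standing for the gene. One limma model over all 8 arrays (4 residual and 2.98 prior degrees of freedom) tested 8107 genes, with p-values adjusted by Benjamini-Hochberg over all of them. Levels are not compared between probes of different genes. A bound sets the bright mean against the lowest signal of a detected probe on the dim arrays.

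The members and lists were chosen with earlier results of these data known. Values of every array are given for Thbs2, Loxl1 and Serpinh1, the 5 largest called differences per direction and comparison, the brightest member of each role and the member with the smallest range. The arrays of a group held no identical values (chi-square per probe 1.56 to 2.19 from bead errors). Same-numbered arrays did not deviate together after normalization (r of -0.0017 to 0.071 over genes), and the main model holds no pairing. This check cannot show whether arrays with the same title ending were processed together, since normalization removes shifts common to an array. Alternatives were other normalizations, filters, probes, variance models, samples in the fit, a replicate block and leaving out each array. The procedure was tested on simulated data.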

Additional observations from a re-analysis of the deposited data

How the results depend on the processing

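Of the counts and medians of matrix genes recomputed under the alternatives, 173 stayed near the value reported and 43 moved, and none changed direction. With quantile normalization without background correction, and equally with the authors' processed values, 11 matrix genes were called in pNSC against fNSC (21 reported) and 12 in miPS-NSC against pNSC (23 reported). The medians were 0.18 and 0.17 for pNSC against fNSC in these settings, 0.061 and 0.048 for miPS-NSC against pNSC, 0.14 and 0.096 for miPS-NSC against fNSC, -1.66 and -1.69 for fNSC against MEF, -1.53 and -1.57 for pNSC against MEF, and -1.07 and -1.06 for miPS-NSC against MEF. No detection filter, and likewise detection p under 0.05 on 4 arrays, gave 0.20 for miPS-NSC against fNSC and -1.96, -1.76 and -1.40 for fNSC, pNSC and miPS-NSC against MEF, and averaging a gene's probes gave -1.66 for miPS-NSC against MEF. Restricted, after seeing the data, to genes detected on all 8 arrays, 34 matrix genes remained. Of these 12 were called in pNSC against fNSC, 14 in miPS-NSC against pNSC and 13 in miPS-NSC against fNSC. Against MEF 26, 24 and 24 of the 34 were called in fNSC, pNSC and miPS-NSC (49, 49 and 48 of 61 reported), with medians of -1.97, -1.67 and -1.13. For the alternatives, here and above, no share of all genes called is given, so their counts are not set against a background. Without chromosomes 4 and 19, also chosen after seeing the data, the medians were 0.42 for pNSC against fNSC, -2.35 for fNSC against MEF and -1.82 for miPS-NSC against MEF. Leaving out 1 array at a time gave 20 to 21 calls and medians of 0.29 to 0.43 for pNSC against fNSC, 22 to 24 and 0.072 to 0.16 for miPS-NSC against pNSC, 21 to 23 and 0.23 to 0.35 for miPS-NSC against fNSC, 49 to 51 and -2.24 to -2.05 for fNSC against MEF, 49 and -1.95 to -1.80 for pNSC against MEF, and 46 to 48 and -1.81 to -1.72 for miPS-NSC against MEF; a lone array was taken to vary like the other groups. The replicate block on the title ending changed no count of matrix genes called (21, 23, 23, 49, 49 and 48). For single named genes, called or not, 36 recomputed values lost a call, 2 changed sign and 1156 kept their direction and their side of the threshold. The difference of Loxl1 between miPS-NSC and fNSC, undetected in both and not called, changed sign to -0.040 without fNSC array 2 and -0.063 without miPS-NSC array 1, within -0.063 to 0.30 over all arrays left out. Signal near background limits the low genes, since the lowest detected log2 signal was 6.13 to 6.29.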
